A study of Caenorhabditis elegans with 2 samples.

Results

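Troponin and tropomyosin form the calcium switch of the actin thin filament in muscle, and 10 Caenorhabditis elegans genes that encode them, chosen by name, were examined for binding of DAF-16 among 19973 nuclear protein-coding genes. Both samples were chromatin immunoprecipitations of DAF-16, the FOXO transcription factor that insulin signalling holds out of the nucleus, from whole hermaphrodites at the L4 stage, 54 hours after synchronisation as starved L1 larvae. Both came from strain ZM7247, in which endogenous daf-16 carries the deletion allele mu86, the insulin receptor gene daf-2 carries the reduced-function allele e1370, and the transgene hpSi4II expresses GFP::daf-16a from the myo-3 promoter, that of a body wall muscle myosin. A further label describes a GFP-FLAG tag at the C-terminal end of the protein, an order that differs from that of the genotype. The 2 biological replicates formed 1 group, and other genotypes and input libraries were not analysed here.

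The samples were whole animals, so binding in few cells and weak binding in many cells cannot be told apart. By the genotype the tagged protein was made from the promoter of a body wall muscle myosin, so binding of DAF-16 inside pharyngeal muscle was not measured. The labels do not say which other muscles outside the pharynx, if any, made the protein. The authors deposited peak lists without read counts, and the depth behind each value is therefore unknown. Their signal is the value that the peak caller gave each peak, it has no SD, and it is compared here only within one list. Candidates are all 30000 peaks called on the pooled replicates. IDR peaks are the 2563 of them that passed the authors' threshold on the irreproducible discovery rate, and they were also the 2563 of highest signal, with a lowest value of 60.5. No test was run on the 10 genes, which were chosen with earlier results of these data known, and the values below are descriptive.

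Troponin sits on tropomyosin along the thin filament. Troponin C binds calcium, troponin I holds back the interaction of actin with myosin until calcium arrives, and troponin T ties the complex to tropomyosin. The worm uses separate genes for its muscles. Of the genes examined, mup-2, tnt-2 and tnt-3 (troponin T), unc-27 and tni-3 (troponin I) and pat-10 (troponin C) are known as body wall isoforms, while tnt-4, tni-4 and tnc-2 serve the pharynx, the pump through which the animal feeds. The single tropomyosin gene, lev-11, makes body wall isoforms from its upstream promoter and others, including pharyngeal ones, from internal promoters.

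Most genes of the body wall troponins carried IDR peaks. Those of the pharyngeal troponins did not, a count of 0 of 3 that the share of 14.2% over all genes does not set apart. In windows from 3000 bp upstream of a gene to 500 bp past its end, 6 of the 10 genes had an IDR summit, against 14.2% of all nuclear protein-coding genes. The 6 were tnt-2, mup-2, tnt-3, unc-27, pat-10 and lev-11. By class, 5 of 6 body wall genes and 0 of 3 pharyngeal genes had one, and the body wall exception was tni-3. The median signal of the strongest candidate was 159 over the body wall genes and 13.3 over the pharyngeal genes, where tnc-2 entered as 0. With genes that lacked a candidate entered as 0 in the same way, it was 13.9 over all nuclear protein-coding genes, close to the pharyngeal value. Close to the start, from 1000 bp upstream to 200 bp downstream of the most upstream annotated start, 5 of the 10 genes had an IDR summit, the same body wall genes, against 6.25% of all nuclear protein-coding genes. With any annotated start of a gene it was again these 5, against 6.91%. The difference between the classes was not tested.

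**Figure D1:**
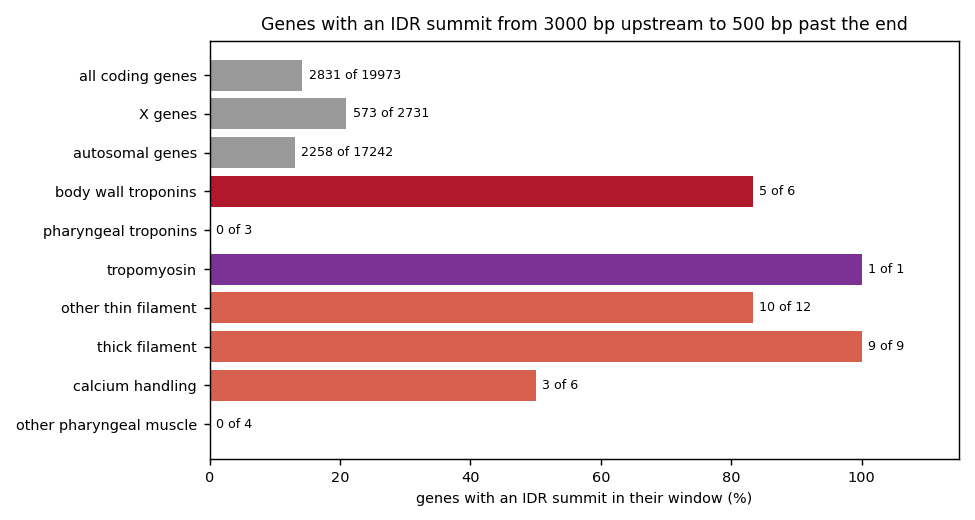
Share of genes (horizontal axis, percent) with an IDR summit from 3000 bp upstream of the gene to 500 bp past its end, with counts beside the bars, for all nuclear protein-coding genes, X and autosomal genes (grey), the troponin and tropomyosin classes and 4 lists of other muscle genes. The body wall troponins stand at 5 of 6, and both pharyngeal groups are at 0.

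Chromosome and class overlapped. All 4 members on X, tnt-2, tnt-3, mup-2 and unc-27, had an IDR summit, as did 2 of the 6 on autosomes, pat-10 and lev-11. Of all X genes 21.0% had one, and of autosomal genes 13.1%. No pharyngeal member lies on X, so isoform class and chromosome cannot be told apart fully over the 10 genes. Long genes have long windows. Among genes on the same kind of chromosome whose windows were within 20% of the member's in length, the share with an IDR summit was 17.1% for tnt-2, 16.2% for mup-2, 14.6% for unc-27, 25.7% for tnt-3, 10.5% for pat-10 and 21.2% for lev-11. For the pharyngeal genes it was 13.6% for tnt-4, 11.6% for tni-4 and 10.5% for tnc-2, so most genes like these had no IDR summit either.

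Sequences of 201 bases centred on 5 of these summits are given here because they include the strongest site of each of the 4 members on X and the site of unc-27 nearest its start. They are ce11 sequences read on the strand of the gene, 5′ to 3′, and the summit is the middle base. Capitals mark matches to TGTTTAC, the DAF-16 binding element (DBE), to its looser forkhead form TNTTTAC, to GAGAGA, to the E-box CAGCTG or to ACGCAGA, on either strand. The first, upstream of tnt-2 (chrX:8724023-8724223, minus strand), and the fourth, farther upstream of unc-27 (chrX:8787931-8788131, plus strand), hold none of them. The others lie at mup-2 (chrX:6410483-6410683, minus strand), at tnt-3 (chrX:7945550-7945750, minus strand) and close to unc-27 (chrX:8789127-8789327, plus strand).
tnt-2, summit 573 bp upstream: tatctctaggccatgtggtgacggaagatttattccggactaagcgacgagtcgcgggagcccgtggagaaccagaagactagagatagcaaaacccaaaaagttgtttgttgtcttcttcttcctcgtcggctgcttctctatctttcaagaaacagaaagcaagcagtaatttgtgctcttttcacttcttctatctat
mup-2, summit 356 bp upstream: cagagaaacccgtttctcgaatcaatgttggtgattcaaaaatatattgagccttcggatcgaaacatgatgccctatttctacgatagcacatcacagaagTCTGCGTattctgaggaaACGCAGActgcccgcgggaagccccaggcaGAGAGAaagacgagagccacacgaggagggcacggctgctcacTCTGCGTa
tnt-3, summit 551 bp upstream: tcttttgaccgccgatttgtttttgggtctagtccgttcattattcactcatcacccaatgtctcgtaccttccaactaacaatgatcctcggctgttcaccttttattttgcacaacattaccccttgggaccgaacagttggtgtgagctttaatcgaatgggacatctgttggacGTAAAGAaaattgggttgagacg
unc-27, summit 1425 bp upstream: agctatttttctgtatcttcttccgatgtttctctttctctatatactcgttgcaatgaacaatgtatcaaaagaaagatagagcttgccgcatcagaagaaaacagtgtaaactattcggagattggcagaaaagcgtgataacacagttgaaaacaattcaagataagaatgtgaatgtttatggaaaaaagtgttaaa
unc-27, summit 229 bp upstream: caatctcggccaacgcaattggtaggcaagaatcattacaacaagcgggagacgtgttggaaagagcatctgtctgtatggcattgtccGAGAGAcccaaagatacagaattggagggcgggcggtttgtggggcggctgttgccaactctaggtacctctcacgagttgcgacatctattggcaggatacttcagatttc

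Troponin T genes held 5 of the 10 IDR summits. The strongest was at tnt-2 (X:8721546-8723550, minus strand), a body wall troponin T gene with 1 annotated transcript. Its main summit, X:8724123, lay 573 bp upstream of the annotated start and had a pooled signal of 237 (rank 164 of 30000), 118 in replicate 1 and 133 in replicate 2. A second summit at X:8724326, of signal 83.0, overlapped the same region (69.5 and 34.0 in replicates 1 and 2), and the 2 cannot be read as separate sites. The third, X:8725110, lay 1560 bp upstream with a signal of 130 (59.4 and 76.5). The window thus held 3 listed summits in 2 regions. At least 3 listed summits, overlapping ones included, were found for 0.706% of all nuclear protein-coding genes and 1.43% of X genes, and at least 2 for 3.01% and 5.31%. Its strongest signal was exceeded by that of 198 of the 2831 genes with an IDR summit.

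At mup-2 (X:6408471-6410227, minus strand), whose loss disrupts muscle attachment and contraction, there was only 1 IDR summit. It lay at X:6410583, 356 bp upstream of the start, with a pooled signal of 227 (rank 180), 120 in replicate 1 and 112 in replicate 2. The replicate summits were 9 and 23 bp from the pooled one. The next strongest candidate, 1123 bp upstream, reached 47.3 and was not an IDR peak. A weaker one, of signal 11.5, lay nearer, 557 bp upstream.

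The third body wall troponin T gene, tnt-3 (X:7937633-7945099, minus strand), is long and has 11 annotated transcripts. Its IDR summit at X:7945650 had a signal of 76.8 (rank 1813), with 48.7 in replicate 1 and 35.2 in replicate 2. This site was weaker than those of tnt-2 and mup-2. It lay 551 bp upstream of the most upstream start, whose cluster holds 2 of the 11 transcripts. It lay 941 bp upstream of the first of the remaining starts, which lie inside the gene between X:7944542 and X:7944709. Grouping of starts within 150 bp split these into sets of 4 and 5 transcripts. The sets adjoin and are not read as separate promoters. For the set of 5 transcripts the IDR summit fell just beyond the limit of 1000 bp upstream. The strongest candidate from that limit to 200 bp downstream reached 19.3. A further 13 candidates were spread over the window, the strongest at 39.2, and 4 of these had a summit within 100 bp in both replicates. The pharyngeal troponin T gene, tnt-4 (V:1989471-1992918, minus strand), had 2 candidates, both in coding exons, of signal 13.3 and 12.4. Neither had a summit within 100 bp in both replicates.

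**Figure D2:**
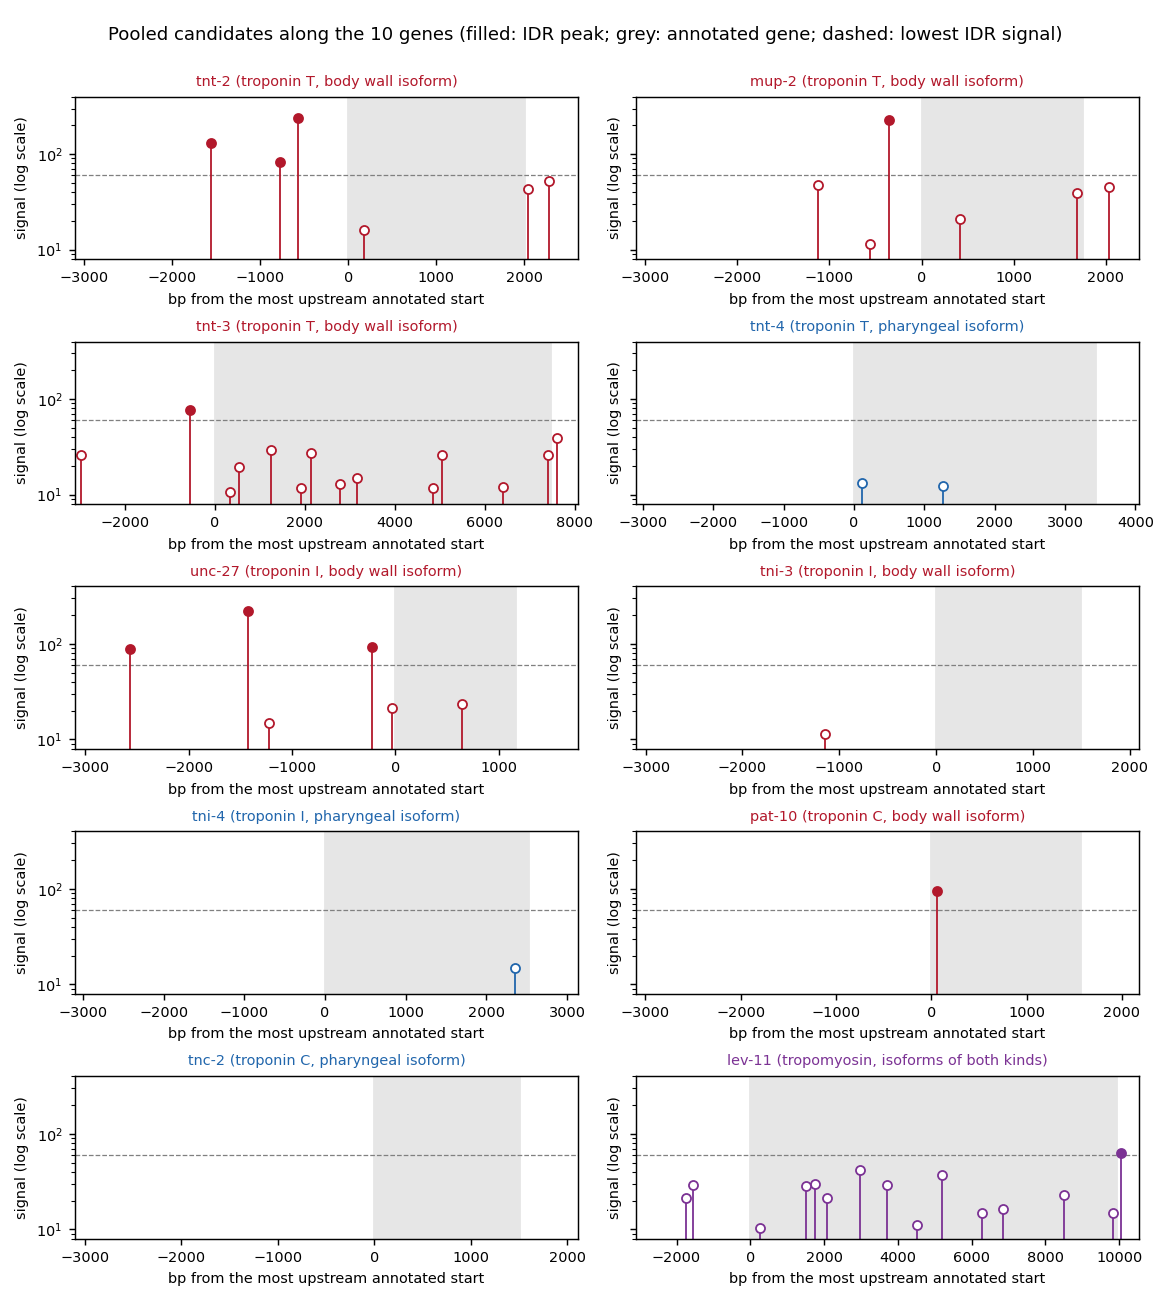
Signal (log scale) of pooled candidates against distance in bp from the most upstream annotated start, in 1 panel per gene. Filled points are IDR peaks, open points other candidates, grey areas the annotated gene and the dashed line the lowest signal of any IDR peak, 60.5. The strong sites of tnt-2, mup-2 and unc-27 lie upstream of the gene, the only IDR peak of lev-11 lies past its far end, and tnc-2 has no candidate.

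Among troponin I genes unc-27 (X:8789456-8790621, plus strand), whose mutants move poorly, was the only one of the members with IDR summits, and it had 3. The strongest, X:8788031, lay 1425 bp upstream with a pooled signal of 223 (rank 186), 131 in replicate 1 and 92.3 in replicate 2. Nearest the gene, X:8789227 lay 229 bp upstream with a signal of 93.3 (51.8 and 49.9 in replicates 1 and 2). Unlike the troponin T genes, unc-27 had its strongest summit more than 1000 bp from the start. The third, X:8786884, of signal 88.6 (48.5 and 37.8), fell in the 3′ UTR of the neighbouring gene ZK721.3 and cannot be assigned to either gene.

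The other troponin I members were nearly free of candidates. At tni-3 (V:16833638-16835128, minus strand), counted with the body wall isoforms, the sole candidate lay 1153 bp upstream with a signal of 11.5 (rank 24197), and replicate 2 had none in the window. At tni-4 (IV:5204591-5207124, plus strand), the pharyngeal isoform, it lay in the 3′ UTR with a signal of 14.9 (rank 17463), and replicate 1 had none in the window. Of all protein-coding genes 58.9% had a pooled candidate, so 1 weak candidate does not set a gene apart from most others.

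For troponin C, as for troponin T, IDR peaks were found at the body wall isoform and not at the pharyngeal one. Here this sets a single gene beside another, and the difference was not tested. The body wall gene pat-10 (I:5018783-5020358, minus strand), needed for the embryo to elongate, had a single pooled candidate and it was an IDR peak. Its summit at I:5020300 lay in the 5′ UTR, 58 bp downstream of the start of 5 of the 6 transcripts and 214 bp upstream of the start of the sixth. It had a signal of 94.7 (rank 1270), with 60.7 in replicate 1 and 34.3 in replicate 2. This was the only member IDR summit inside a member gene, and it also lay in the window of the protein-coding gene C46H11.6. The pharyngeal gene tnc-2 (II:10466852-10468358, plus strand) had no candidate in the pooled list or in either replicate, which limits its signal only to below the weakest listed candidate, 9.22 in the pooled list.

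Tropomyosin was counted as bound by the window alone. The IDR summit of lev-11 (I:14621169-14631094, minus strand) lay at I:14621058, 111 bp past the end of the gene. It had a signal of 62.8 (rank 2416), near the lowest IDR value of 60.5, with 42.6 in replicate 1 and 26.0 in replicate 2. The nearest annotated start was that of Y105E8B.11, 421 bp away and downstream on the same strand, so the site cannot be assigned to lev-11 alone. In replicate 2 alone it would not have been among the 2563 strongest candidates (rank 3706), and lev-11 was not counted when replicate 1 was left out.

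The 20 transcripts of lev-11 start in 4 clusters, and none had an IDR summit from 1000 bp upstream to 200 bp downstream. The upstream cluster, that of 9 transcripts and of the body wall promoter, had in that range a strongest candidate of 10.4. It lay 251 bp downstream of the first start and in an intron. Farther upstream, beyond that range, candidates of signal 28.9 and 21.3 lay 1545 and 1745 bp from the first start. Neither was an IDR peak, and only the stronger had a summit within 100 bp in both replicates (11.7 in replicate 1 and 21.5 in replicate 2). At the first internal cluster, 5648 bp farther in and used by 6 transcripts, a candidate of signal 37.2 lay 458 bp upstream. The other internal clusters had strongest candidates of 14.8 and 16.3. The strongest candidate below the IDR peaks, of signal 42.2, lay 2962 bp into the gene in an intron. Of the 14 lev-11 candidates below the IDR threshold, 6 were matched within 100 bp in both replicates. Over all nuclear candidates below the threshold the share was lower, 22.4%. The shares were not compared at like signal, and the difference was not tested.

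**Figure D3:**
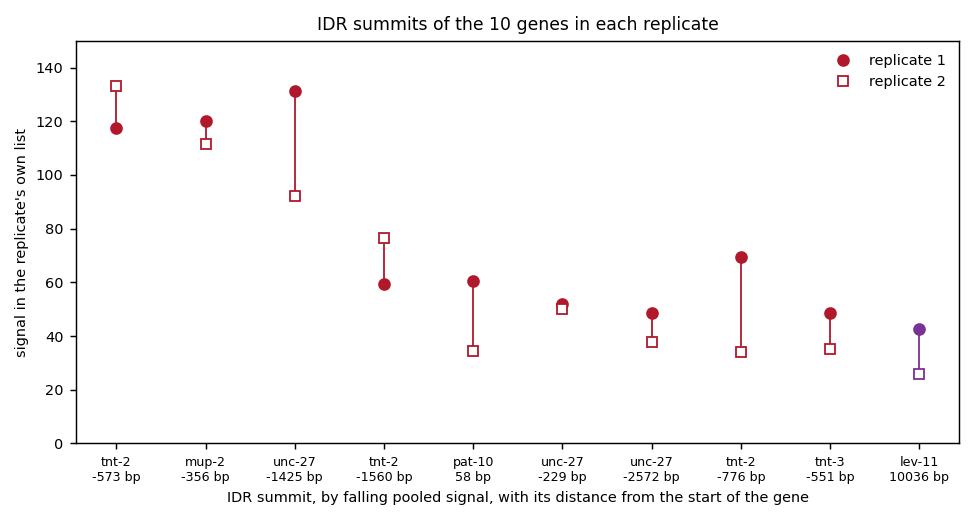
Signal of the 10 IDR summits in each replicate's own list (vertical axis; circles replicate 1, squares replicate 2), ordered by pooled signal, with the distance from the start of the gene in bp below each name (negative is upstream). Signals run from 42.6 to 131 in replicate 1 and from 26.0 to 133 in replicate 2, and the same 3 summits, at tnt-2, mup-2 and unc-27, are highest in both.

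Each of the 10 IDR summits was matched within 100 bp in both replicates, as were 95.0% of all nuclear IDR peaks. In both lists the strongest 3 were the main sites of tnt-2, mup-2 and unc-27. The Spearman correlation of the replicates over the 10 summits was 0.64, which describes these sites and not independent samples. The median distance of the replicate 1 summits from the pooled ones was 62.5 bp, and those of replicate 2 were mostly nearer. With a limit of 50 bp, 3 of the 10 were matched in both.

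**Figure D4:**
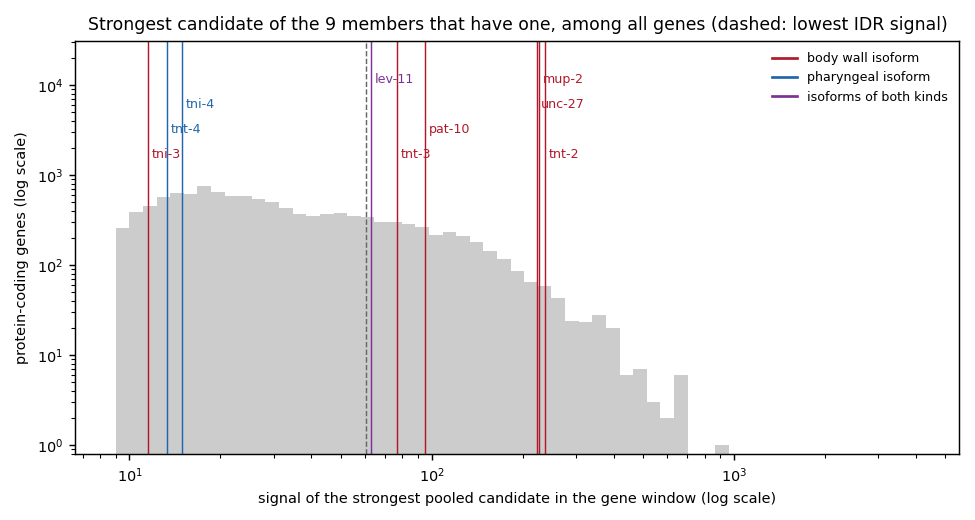
Number of protein-coding genes (log scale) by the signal of their strongest pooled candidate (log scale), with the values of the 9 members that have one as coloured lines and the lowest IDR signal as a dashed line. tnt-2, mup-2 and unc-27 lie between 223 and 237, tnt-3, pat-10 and lev-11 between 62.8 and 94.7, and tni-3, tnt-4 and tni-4 between 11.5 and 14.9.

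None of the 10 summits had the DBE (TGTTTAC or GTAAACA) within 100 bp, or within 200 bp, and 8.98% of the 2540 nuclear IDR peaks and 2.45% of the other nuclear candidates had it within 100 bp. A share of 8.98% is fewer than 1 summit in 10, so the absence from 10 summits does not set them apart. The looser form TNTTTAC, which contains the DBE, lay at 1 summit, that of tnt-3, where 19.6% of nuclear IDR peaks had it. CAGCTG, an E-box that the myogenic factor HLH-1 binds, lay at none, against 10.5%. The DAF-16 associated element CTTATCA also lay at none, against 3.78%. No match says only that these letters are not within that distance of the summits. The whole gene windows did hold the DBE, with 3 matches at tnt-3, 2 each at unc-27 and lev-11 and 1 each at mup-2 and tni-3. CAGCTG occurred in all of the gene windows but those of tnt-2 and tnc-2. These window counts were not compared with those of other genes.

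GAGAGA, a repeat that is common at the IDR peaks as a whole, lay at 4 of the 10 summits, those of mup-2, pat-10, unc-27 (229 bp upstream) and tnt-2 (776 bp upstream). Of the nuclear IDR peaks 41.3% had it and of the other candidates 16.1%. ACGCAGA lay at mup-2, 3 times in the printed sequence, and once at pat-10, against 12.8% of IDR peaks and 3.49% of other candidates. Both words were thus found at shares like those of the IDR peaks in general. The median share of G and C over 201 bases was 40.8% for the 10 summits and 42.8% for nuclear IDR peaks. Highest were the mup-2, pat-10 and nearer unc-27 sites, each at 50.7%, and lowest was the strongest unc-27 site at 33.3%. No 31-base word of the 10 regions occurred elsewhere in the genome.

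A short noncoding RNA gene is annotated at 3 of the 10 summits, each upstream of a body wall troponin gene and on its strand. F53A9.11 (X:8724097-8724233, 137 bp) underlies the main tnt-2 summit, T22E5.10 (X:6410539-6410672, 134 bp) the mup-2 summit and ZK721.6 (X:8789174-8789289, 116 bp) the nearer unc-27 summit. All are annotated as ncRNA, and what they do is not stated in the annotation. Of all nuclear IDR summits 9.92% lay in a gene of this kind, and of the other candidates 2.47%. Whether the summits belong to the troponin gene or to the noncoding gene cannot be told apart. The mup-2 summit also lay in the window of T22E5.1 and the nearer unc-27 summit in that of chup-1, both protein-coding.

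Candidates also lay near the far ends of 5 of the genes. Within 300 bp of the annotated end, tnt-2 had a candidate of signal 51.8 (271 bp past the end), mup-2 one of 45.2 (276 bp past), tnt-3 one of 39.2 (145 bp past) and lev-11 its IDR peak of 62.8. A candidate at least as strong as that of tnt-3, the weakest of these sites, was found there in 3.34% of all protein-coding genes and in 3.99% of X genes. That cutoff was taken from these same genes after their values were seen. They pass it by construction, so the shares only describe how frequent such signals were. The sites of tnt-3 and lev-11 had a summit within 100 bp in both replicates, while those of tnt-2 and mup-2 had one in replicate 2 only, of signal 33.8 and 59.4. A second tnt-2 candidate, of signal 42.9 and 36 bp past the end, had a summit within 100 bp in both replicates (32.8 in replicate 1 and 14.2 in replicate 2). These ends were looked at because the values were seen to stand out. Within 300 bp of the end 21.0% of all protein-coding genes had a candidate of any signal. Of the other members tni-4 had a candidate there, of signal 14.9, 180 bp before the end, and the remaining 5 had none.

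Other muscle genes were counted in the same windows, where 14.2% of all nuclear protein-coding genes had an IDR summit. Of 12 other thin filament genes 10 had an IDR summit in the window, led by act-1 (signal 291) and act-2 (267), actins of one cluster whose windows overlap, cap-2 (206), an actin capping protein, and unc-78 (196), an actin-interacting protein. The act-2 summit, 2467 bp upstream of that gene, lay in the stretch shared with the act-1 window and was counted for both genes. The exceptions were tmd-2, a tropomodulin gene (29.2), and cap-1 (43.7). The further body wall troponin I gene, tni-1, had an IDR summit of signal 121 at X:11379532, 2062 bp upstream. All 9 thick filament genes had one, led by myo-3 (865), whose promoter is also in the transgene, unc-22 (272), unc-54 (217) and ttn-1 (212). The myosin light chain genes mlc-1 and mlc-2 shared a single IDR summit (74.3), which was counted for both. The thick filament list includes long genes, with a window of 85224 bp for ttn-1. These counts take summits anywhere in the window, not at the start alone. The strongest summits of act-1, unc-60 and mlc-3 lay past the far end of the gene, 1539, 4545 and 2764 bp downstream of its start. That of unc-54 lay 7519 bp downstream, near its far end. In the remaining genes with an IDR summit the strongest lay upstream of the start or inside the gene.

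Of 6 calcium handling genes 3 had an IDR summit: the ryanodine receptor gene unc-68 (110), the calcium pump gene sca-1 (signal between those of the other two) and the calsequestrin gene csq-1 (80.5). The calcium channel gene egl-19 (26.2), the calmodulin gene cmd-1 (56.3) and itr-1, an inositol trisphosphate receptor gene with no candidate, had none. None of 4 genes of pharyngeal muscle, myosins and fate regulators, had one, a count that the share of 14.2% over all genes does not set apart. The pharyngeal myosin genes myo-1 and myo-2 reached 12.8 and 15.3, the homeobox gene ceh-22 reached 22.2, and pha-4, the forkhead gene of pharyngeal fate, had no candidate. The lists were chosen with earlier results known, and no difference between them was tested.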

How the data were processed

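The ce11 peak lists were used: one for each replicate, one called on both replicates pooled, and one thresholded on the irreproducible discovery rate. The signal in them is as the authors deposited it. The sources used here give neither its scaling nor the aligner or peak caller. Per the file lists that accompany the samples, a control library entered the making of each candidate list. The summit is the peak start plus the summit offset that the authors deposited. The ce10 lists were not used here.

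No peak ran past the end of a chromosome of WBcel235, the assembly that ce11 names. Annotation was that of Ensembl release 115, and positions count from 1. A gene window ran from 3000 bp upstream of the gene to 500 bp past its end. Summits of different lists were matched within 100 bp, and words were searched on each strand up to 100 bp from a summit. Depth per sample is unknown, so no counting error is given, and no p-value was computed. Window counting and word search (Python 3.11.15, numpy 2.4.6) were tested on simulated data with planted sites.

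All 10 genes are named, together with protein-coding genes at a member summit, and genes from 4 lists of contraction genes. Members and lists were chosen with earlier results of these data known. The looser forkhead word, the DAF-16 associated element, ACGCAGA, the noncoding genes and the gene ends were chosen after values were seen. Alternatives were other windows, peak sets, match distances and word windows, and each replicate left out, with the IDR peaks replaced by the same number of top candidates of the remaining list.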

Additional observations from a re-analysis of the deposited data

How the results depend on the processing

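The counts of members with an IDR summit (4 to 9) and of body wall members (4 to 6) stayed within 1.5 times the reported 6 and 5 under every alternative run, and lev-11 and tnt-3 were the members that dropped out. Pharyngeal members stayed at 0 except when all pooled candidates counted, which gave 2. The 10 summits became 6 in each of 3 narrower windows (1000 bp upstream to 200 bp downstream of the first or of any start, and 1000 bp upstream to the gene end), 5 among IDR peaks of at least the median signal, where tnt-3 and lev-11 had none, and 52 with all pooled candidates. Without replicate 1 there were 12 and without replicate 2 there were 11. Of the 10 summits, 3 were matched in both replicates within 50 bp. GAGAGA lay within 50 bp of 2. The strongest signal near any start was 93.3 for unc-27 and 37.2 for lev-11, and tni-3, tni-4 and tnc-2 had none there. The motif counts without each replicate were added after seeing the data and gave 5 with GAGAGA each time, and none with the DBE or CAGCTG. No paired analysis was possible because there was 1 group and no test. The limit on all values is depth, which the files do not give: a member with no candidate is only below the weakest listed signal.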
